A study of Mus musculus with 5 samples.

Results

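The peaks described here are the RXRα peaks of mouse alveolar macrophages (AMs) that lie nearest to 10 genes for nuclear receptors that pair with RXR: Pparg, Ppara, Ppard, Rara, Rarb, Rarg, Vdr, Thra, Thrb and Nr4a1. A peak was given to the protein-coding gene, of 21728 on the chromosomes with peaks, whose transcription start site (TSS) was nearest to the midpoint of the peak. RXRα binding was measured by HT-ChIPmentation, in which chromatin is pulled down with an antibody and the sequencing library is made on the beads with the transposase Tn5. AMs are the resident macrophages of the airspace. They were washed from the lungs and sorted by flow cytometry.

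WT A and WT G came from CD11cCre- Rxrab fl/fl mice, and KO A and KO G from CD11cCre+ Rxrab fl/fl mice. All 4 libraries therefore carried floxed Rxra and Rxrb, and only the KO animals carried the recombinase. Cre was driven by the promoter of Cd11c (Itgax), which is active in AMs and also in other cells with CD11c, such as dendritic cells. Deletion in those cells was not measured here. The mice were 9 weeks old and had the C57BL/6J background. An input sample from CD11cCre- Rxrab fl/fl mice was the control for peak calling and has no list of its own here. The labels do not say whether the libraries A and G of a genotype came from separate animals, so the spread between them may be technical.

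RXRs are nuclear receptors that bind DNA mostly as a pair with a partner receptor. Most pairs recognise 2 copies of the hexamer AGGTCA, and the spacing and orientation of the copies favour particular partners. The partners differ in their ligands. PPARs respond to fatty acids and their derivatives, RARs to retinoic acid, VDR to active vitamin D and thyroid hormone receptors to thyroid hormone, whereas NR4A1 (Nur77) is an immediate early factor for which no classical ligand is needed. In AMs, PPARγ is known as a factor required for their development and for handling surfactant lipids. A peak at one of these genes is a place where RXRα was found on the DNA of the gene for a partner. It measures neither the amount of the partner nor the partner's own binding.

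The 10 genes were nearest to 16 of 4751 peaks in WT A, 33 of 9766 in WT G, 0 of 83 in KO A and 0 of 208 in KO G. Overlapping WT peaks were merged into 35 regions at these genes. In 13 of them both WT lists held a peak, out of 3423 such regions genome-wide. These 13 regions lay at 4 genes only: 6 at Rara, 3 at Pparg, 3 at Nr4a1 and 1 at Vdr. They are numbered by position along the chromosome within each gene.

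The sequences around 6 of the summits show the DNA beneath the peaks. They include the strongest region of each of the 4 genes, by its highest −log10 q in either WT list. At Nr4a1 this is region 2, which was the strongest in WT A but not in WT G. The others, Rara regions 3 and 4, were added because they are the remaining regions that held a direct repeat of AGGTCA. Repeats are therefore more frequent among the printed windows than among the 13 regions. Each sequence runs 50 bp to either side of the summit of the stronger WT peak (by −log10 q). It is given 5′ to 3′ on the plus strand of mm10, and has in capitals the hexamers of a direct repeat with at most 2 mismatches in all.
Pparg region 2 (chr6:115421014-115421114): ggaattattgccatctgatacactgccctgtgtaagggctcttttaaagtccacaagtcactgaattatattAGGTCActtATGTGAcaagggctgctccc
Rara region 2 (chr11:98941801-98941901): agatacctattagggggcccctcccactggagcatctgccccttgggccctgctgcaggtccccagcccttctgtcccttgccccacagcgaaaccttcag
Rara region 3 (chr11:98943553-98943653): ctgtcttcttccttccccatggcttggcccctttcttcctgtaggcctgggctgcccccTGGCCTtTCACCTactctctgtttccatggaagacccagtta
Rara region 4 (chr11:98949853-98949953): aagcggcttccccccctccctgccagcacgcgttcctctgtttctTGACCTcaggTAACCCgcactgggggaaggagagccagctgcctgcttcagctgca
Vdr region 1 (chr15:97880744-97880844): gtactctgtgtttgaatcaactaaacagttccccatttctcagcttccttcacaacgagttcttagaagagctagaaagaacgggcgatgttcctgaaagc
Nr4a1 region 2 (chr15:101246997-101247097): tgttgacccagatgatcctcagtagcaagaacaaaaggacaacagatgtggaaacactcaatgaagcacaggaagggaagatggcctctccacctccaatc
At Pparg region 2 the capitals mark a direct repeat with a spacer of 3 bp (DR3) on the plus strand, at chr6:115421086-115421100, whose first hexamer is an exact AGGTCA. At Rara region 3 they mark a DR1 on the minus strand, at chr11:98943612-98943624. At Rara region 4 they mark a DR4 on the minus strand, at chr11:98949898-98949913, again with 1 exact hexamer. No direct repeat was found in the windows of Rara region 2, Vdr region 1 and Nr4a1 region 2.

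**Figure D1:**
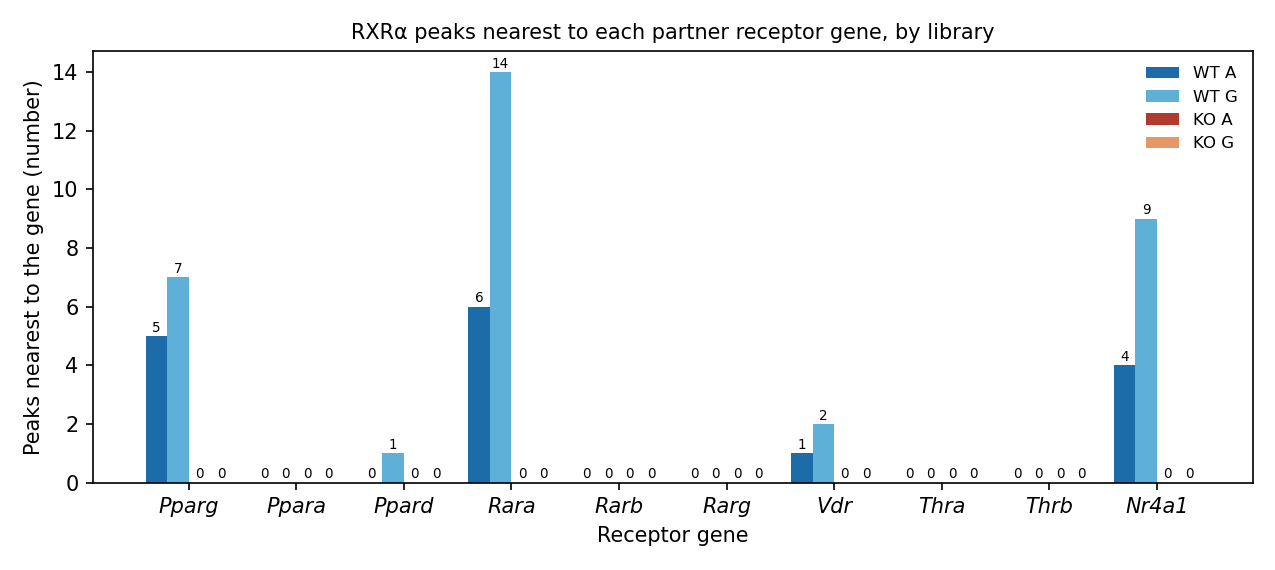
Number of RXRα peaks (vertical axis) nearest to each of the 10 receptor genes (horizontal axis) in WT A, WT G, KO A and KO G, one bar per library. Rara, Nr4a1 and Pparg had most of the WT peaks, Ppara, Rarb, Rarg, Thra and Thrb had none, and every KO value is 0.

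RXRα peaks were thus found at the genes of 4 of the 10 partners in both WT libraries, and Ppard had a peak in WT G alone. The same count over all protein-coding genes was 8.9% with a region in both WT lists, 10.5% with a WT A peak and 16.7% with a WT G peak, against 4 of 10, 4 of 10 and 5 of 10 of the receptor genes. The 10 genes were chosen with earlier results of these data known. These shares and the ranks below are therefore descriptions and do not measure an enrichment at partner genes. A further 6 partner genes, counted below, had no such region. The numbers of peaks may depend, which was not tested, on how much of the genome is closest to a gene. This stretch was 53.7 kb for Rara, 36.3 kb for Nr4a1, 59.9 kb for Vdr and 177 kb for Pparg, against a median of 46.6 kb over all genes (quartiles 22.0 and 109 kb). The longest stretches, 992 kb at Thrb and 648 kb at Rarb, held no peak. A total of 3 or more regions in both WT lists were found at 1.56% of genes, among them Rara, Pparg and Nr4a1, and 6 or more at 0.295%, among them Rara. By this count Rara ranked 42 among 1933 genes with such a region, Pparg and Nr4a1 shared rank 178, and Vdr ranked 720. These ranks are among protein-coding genes, and with genes of any type as candidates Rara kept 3 of its 6 regions.

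Depth differed between the libraries, and its part in these counts was not tested. Fragments at the summits were derived from the fold enrichment and −log10 p in the lists. The genome-wide background was 1.42 fragments in WT A and 0.551 in WT G. Divided by the shortest peak width (116 and 215 bp), taken as the fragment length of the peak caller, these levels make WT A 4.77-fold deeper than WT G. On the same scale, relative to WT A, WT G had a depth of 0.210, whereas KO A had 0.572 and KO G had 0.750, so both KO libraries were deeper than WT G. A summit rested on a median of 16 fragments in WT A and 8 in WT G. WT G gave more peaks, in all and at the receptor genes. At the receptor genes 15 of 16 peaks in WT A, and 29 of 33 in WT G, were called against a local background within 2% of the genome-wide level of their library, compared with 79.4% and 78.3% of all peaks. Of 8 AM marker genes, 7 had a region in both WT lists, compared with 1 of 7 markers of monocytes and other macrophages (Cx3cr1), 1 of 3 of lung epithelium (Scgb1a1), 0 of 3 of neutrophils and 0 of 3 of lymphocytes. The share over all protein-coding genes was 8.9%. KO G had 1 peak at the AM marker Itgax and 1 at the monocyte marker Ly6c2. Like the other comparison lists, the marker lists were chosen with earlier results of these data known. Peaks do not measure expression, so they do not check the identity of the cells.

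**Figure D2:**
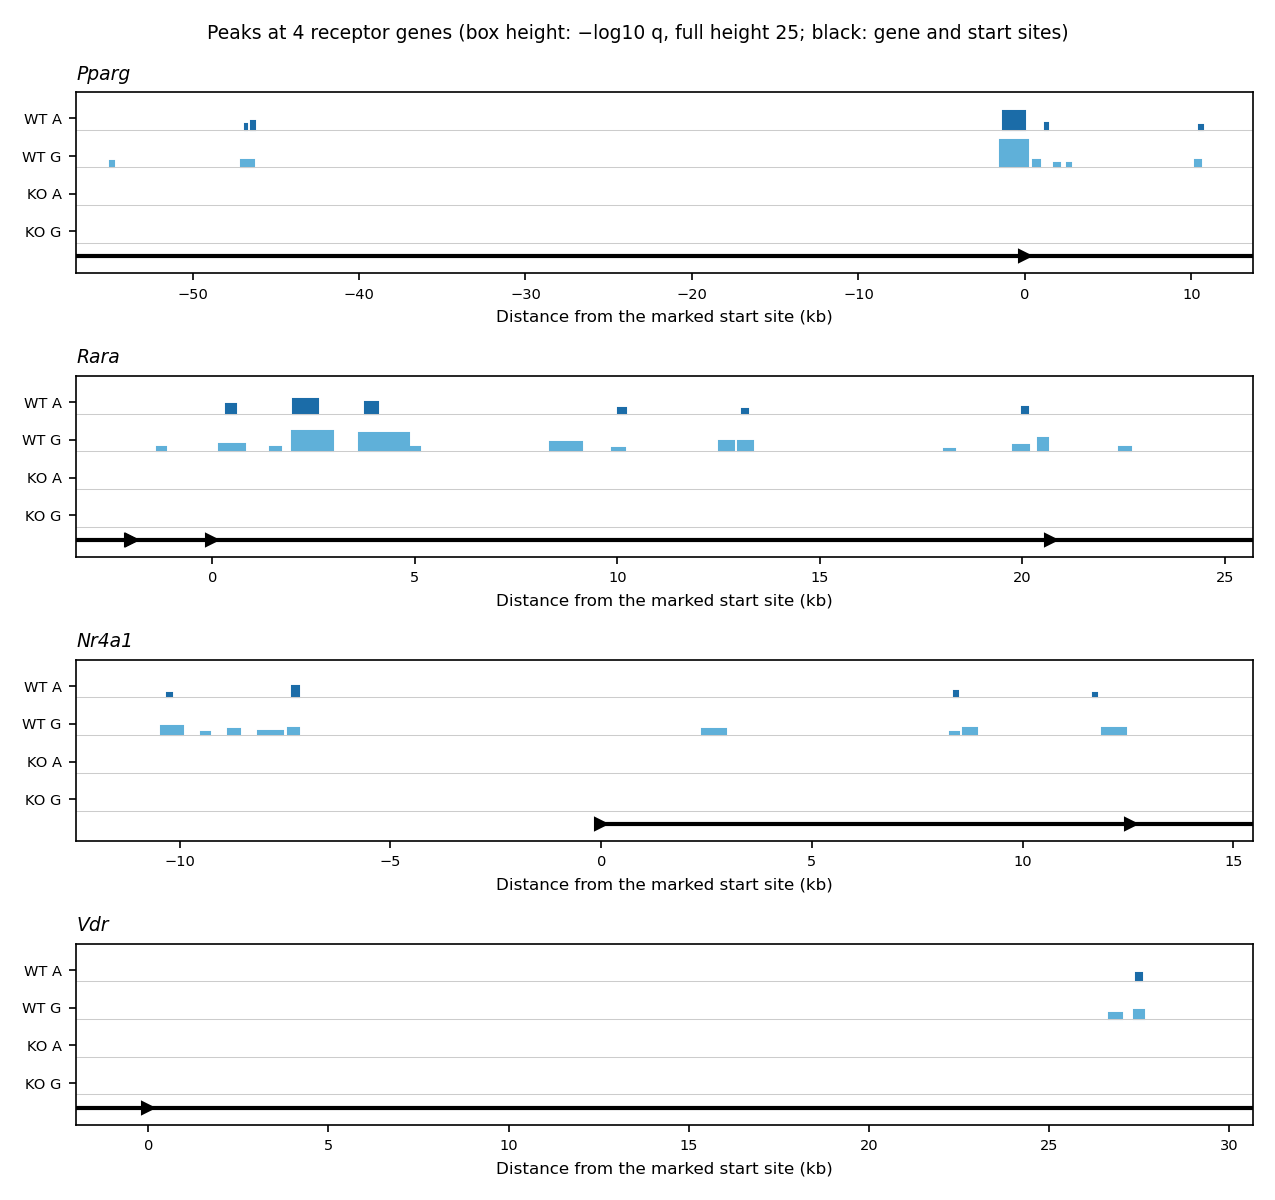
Peaks of the 4 libraries at Pparg, Rara, Nr4a1 and Vdr by distance (kb) in the direction of transcription from the start site closest to the strongest region of the gene. Box width is peak width and box height is −log10 q (full height 25), the black line is the gene, and triangles are annotated start sites within the range shown. Each WT A peak has a WT G peak over or close to it, WT G also has peaks apart from those of WT A, as in the left of the Pparg map, and the KO rows are empty.

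Pparg encodes PPARγ, the partner that AMs depend on. It had 5 peaks in WT A and 7 in WT G. The strongest lay at an internal promoter, Pparg region 2 (chr6:115420570-115422278). It covered the start site at 115422066, which begins the annotated transcript for the 505-residue protein, the PPARγ2 form, whereas the start sites at 115360951 and 115362292 begin transcripts for a 475-residue protein. The peak reached a −log10 q of 14.7 for WT A and 21.8 for WT G, with fold enrichments over background of 9.85 and 14.2. It ranked 442 of 4751 in WT A and 95 of 9766 in WT G, the top 9.30% and 0.973% of the lists, and was the strongest of the receptor gene peaks in both. The summits in WT A and WT G were 30 bp apart, about 1.0 kb upstream of the start site. They rested on 24 fragments in WT A (95% exact Poisson interval 15.4 to 35.7) and 21 in WT G (13.0 to 32.1), where the genome-wide background was 1.42 and 0.551 fragments.

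The other Pparg peaks were weaker and intronic. Region 1 (chr6:115374986-115375793) was 13.1 kb downstream of the start site at 115362292, with a −log10 q of 7.14 for WT A and 5.73 for WT G. WT A had 2 separate peaks in it, with summits at 115375261 and 115375616, and WT G 1 broad one with its summit at 115375281. The strongest summits were 335 bp apart, the widest gap among the 13 regions. The summit of the weaker WT A peak lay closer to that of WT G. Region 3 (chr6:115432283-115432741) was 10.4 kb downstream of the internal start site, with a −log10 q of 3.94 for WT A and 5.73 for WT G. Its WT A peak was the only WT A receptor gene peak called against a raised local background, 1.59 times the genome-wide level. Just downstream of the internal start site both libraries had peaks that missed each other. WT A had 1 at 1.31 kb (−log10 q 5.22), and WT G had 3 at 0.701, 1.93 and 2.67 kb (5.73, 3.61 and 3.61). Neither of the upstream start sites had a peak within its RefSeq promoter (250 bp before to 50 bp after the start) in any list, and WT G alone had a weak peak 4.93 kb downstream of the nearer of them (−log10 q 4.64).

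Rara encodes RARα, a receptor for retinoic acid. It had 6 peaks in WT A, all of which overlapped a WT G peak, and 14 peaks in WT G. All 20 fell within 24.0 kb inside the gene. An snRNA gene, Gm22061, lies in the same stretch, and with genes of any type as candidates it took 3 of the 6 shared regions, Rara regions 3 to 5. The strongest, regions 2 and 3, lay side by side in an intron after the start site at 98939711. Region 2 (chr11:98941678-98942688), 2.47 kb downstream, had a −log10 q of 11.3 for WT A and 15.9 for WT G, with fold enrichments of 8.68 and 11.6. Region 3 (chr11:98943339-98944559), 4.24 kb downstream, had a −log10 q of 9.11 and 14.5, with fold enrichments of 7.89 and 11.0. After Pparg region 2 these were the strongest receptor gene regions in both lists, region 3 being level in WT A with Nr4a1 region 2. The summits of region 3, which holds the DR1, were 2 bp apart between the libraries, the closest match of all 13.

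The remaining shared Rara regions had a −log10 q between 3.43 and 7.14 in WT A and between 2.63 and 8.04 in WT G. Region 1 (chr11:98939869-98940528) lay 0.487 kb after the start site at 98939711. Region 4 (chr11:98949583-98949932) lay in an intron about 10 kb downstream of the same site and was among the weakest, with 13 and 6 fragments for WT A and WT G. Its summits were 221 bp apart, and the DR4 printed above lies at the WT A summit, where the WT G peak does not reach. Region 5 (chr11:98952691-98953051) was intronic. Region 6 (chr11:98959482-98959877) was in the promoter of the last start site, at 98960412, which begins the transcript for a 459-residue form of the receptor. The start sites further upstream begin transcripts for a 462-residue form. WT G had a second and stronger peak 0.19 kb upstream of that last start site, with a −log10 q of 10.5, a fold enrichment of 9.03 and 13 fragments, in the top 9.12% of its list. WT A had no peak there, and its nearest, in region 6, was 240 bp away.

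Vdr encodes the vitamin D receptor. It had 1 peak in WT A and 2 in WT G, all within 0.973 kb of each other in an intron some 27 kb downstream of its start site. Region 1 (chr15:97880657-97880938) had a −log10 q of 6.16 for WT A and 6.88 for WT G, on 15 and 10 fragments, and the summits were 9 bp apart. The second WT G peak lay 373 bp from the WT A peak (−log10 q 4.64).

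Nr4a1 encodes an orphan receptor that is switched on rapidly by many stimuli and can bind DNA alone or with RXR. It had 4 peaks in WT A and 9 in WT G. A cluster lay upstream of the first start site (101254269), at chr15:101243816-101247103. There regions 1 and 2 were 10.2 and 7.30 kb upstream, and 3 further WT G peaks lay between them. Region 1 had a −log10 q of 3.43 for WT A and 6.88 for WT G, and region 2 had 9.11 and 5.73. The order of the 2 regions was therefore opposite in the 2 libraries, with fragment intervals that overlapped in each (6.20 to 21 and 11.4 to 29.7 in WT A, 4.80 to 18.4 and 4.12 to 17.1 in WT G). Region 3 (chr15:101262537-101262751) was intronic, 4.20 kb upstream of the second start site (101266846), with a −log10 q of 5.22 and 2.63. In the promoter of that second start site each WT library had a peak, 0.863 kb upstream in WT A (−log10 q 3.43) and 0.409 kb upstream in WT G (5.73). They were 111 bp apart and so are not counted as shared.

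The other receptors had little or nothing. Ppard, a widely expressed fatty acid receptor, had a single WT G peak in an intron 0.833 kb downstream of a start site (−log10 q 3.61, fold enrichment 5.16, 7 fragments), and the WT A peak nearest to its start sites was 14.6 kb away and was given to Def6. Thra, for thyroid hormone receptor α, had no peak of its own, and the nearest peaks in both WT libraries were 31.8 kb away at Nr1d1, its neighbour, which encodes the repressor REV-ERBα (−log10 q 6.16 for WT A and 13.2 for WT G). Around Rarg, the retinoic acid receptor typical of skin, the nearest WT peaks were 95.5 kb away in WT A, at Soat2, and 93.4 kb in WT G, at Aaas. For Ppara, the PPAR of fatty acid oxidation in liver, the nearest WT peak was 331 kb away. For Rarb and Thrb it was 332 and 1417 kb away. None of these 5 genes had a peak within its transcribed stretch in any list.

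**Figure D3:**
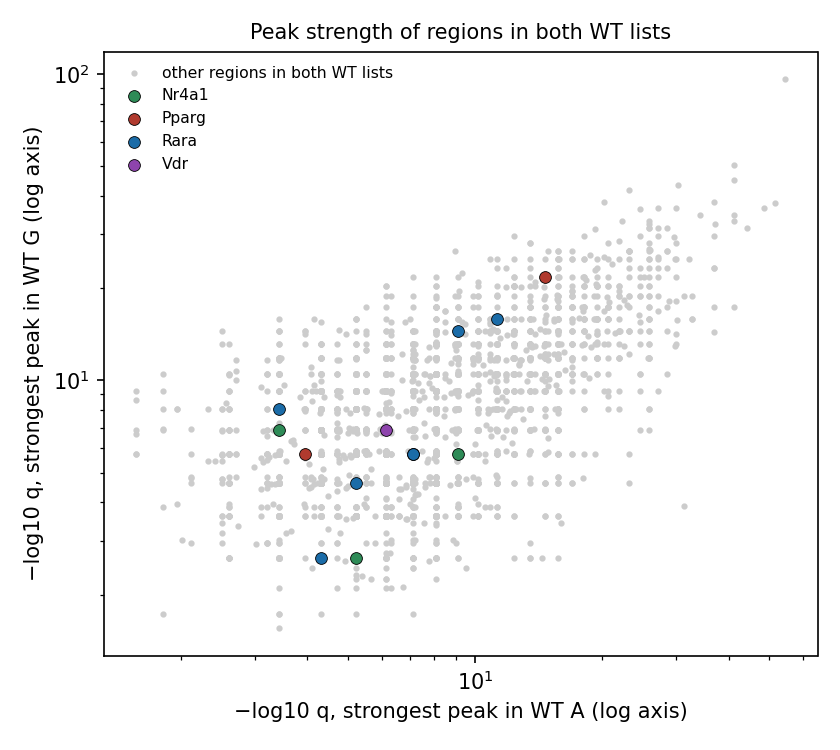
Strongest −log10 q of each region in WT A (horizontal, log axis) against WT G (vertical, log axis) for the regions present in both WT lists, with the 13 receptor gene regions coloured by gene and all others grey. Pparg region 2 (14.7 and 21.8) and Rara regions 2 and 3 stand in the upper right. Nr4a1 region 2 lies as far right as Rara region 3 but lower (9.11 and 5.73), and the other receptor gene regions lie in the lower left of the cloud. Rara region 1 and Pparg region 1 have equal values and share a point.

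Apart from Pparg region 2 and Rara regions 2 and 3, strength at the receptor genes was moderate. The median −log10 q of the 13 regions was 6.16 in WT A and 5.73 in WT G, below the medians of 8.06 and 8.04 over all 3423 shared regions. Over all receptor gene peaks the median fold enrichment was 5.93 in WT A and 5.84 in WT G, compared with 6.32 and 5.80 over all peaks of those lists. The −log10 q values of the 2 libraries correlated across the 13 regions with a Spearman rho of 0.434, and with 0.522 across all shared regions. These regions share libraries and input, so the coefficients are descriptions. The regions lay at a median of 7.30 kb from a start site, compared with 15.7 kb over all shared regions. Within 10 kb were 8 of 13 (61.5%, 95% exact binomial interval 31.6 to 86.1), an interval that includes the 39.4% of all shared regions.

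**Figure D4:**
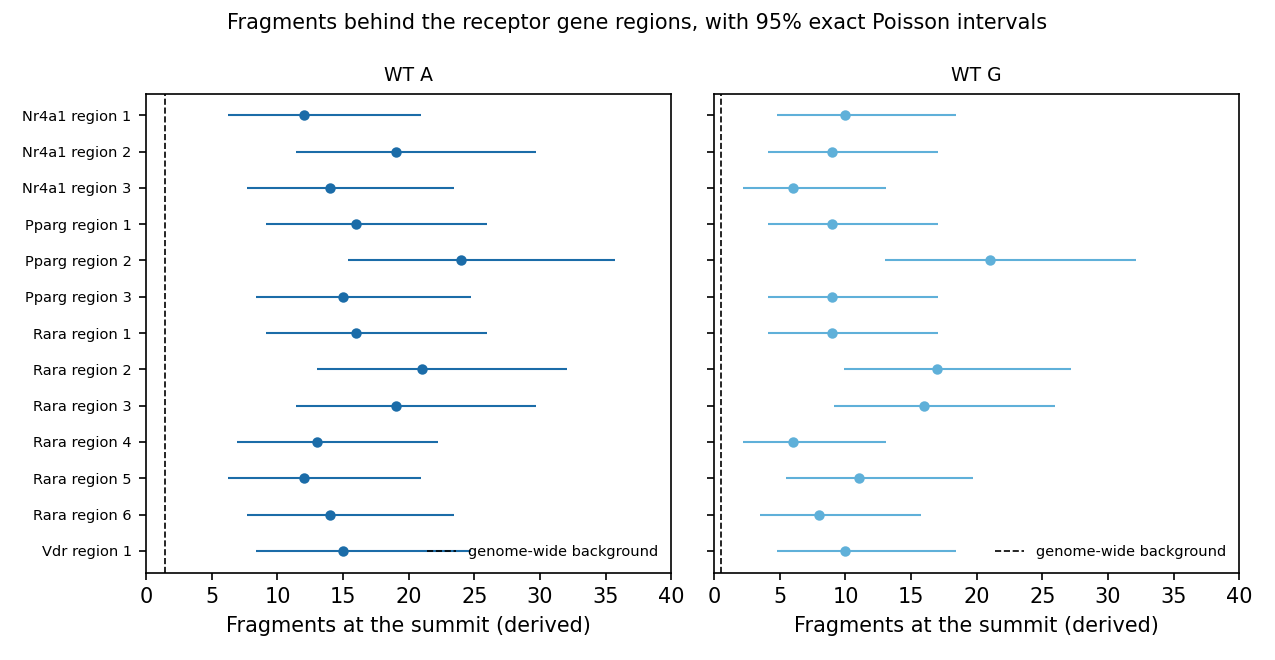
Fragments at the strongest summit of each of the 13 receptor gene regions in WT A (left) and WT G (right), with 95% exact Poisson intervals (bars, counting error only) and the genome-wide background of the library (dashed line). Pparg region 2 is the highest in both panels (24 and 21 fragments). The regions were chosen as called peaks, so their place above the background is given by that choice.

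The fragment counts were highest at Pparg region 2 in both libraries. In WT A they ran from 12 to 24 and in WT G from 6 to 21. Differences between regions within a library were not tested. Of the 16 WT A peaks at receptor genes, 14 overlapped a WT G peak (87.5%, 95% exact binomial interval 61.7 to 98.4), next to 83.2% of all WT A peaks. Of the 33 WT G peaks, 13 overlapped a WT A peak (39.4%, 22.9 to 57.9), next to 36.1% of all WT G peaks. With an overlap of at least 1 bp, these shares are near those of all peaks. When 50% of both peaks had to overlap, they fell to 37.5% in WT A and 18.2% in WT G. With WT G cut to the length of WT A, the WT G share was 58.8%. The 2 unmatched WT A peaks were 111 and 305 bp from a WT G peak. Of the 20 unmatched WT G peaks, 12 lay within 1 kb of a WT A peak, compared with 23.5% of all unmatched WT G peaks. Summits of the 13 shared regions were a median of 57 bp apart (97 bp over all shared regions).

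No KO peak was nearest to any of the 10 genes. WT libraries had 24.5 ± 12.0 (SD, n = 2) receptor gene peaks and KO libraries 0 and 0, groups that did not overlap. By a two-sided exact permutation test p was 0.333, which is the minimum that 2 libraries in each group allow. Leaving out WT G lowered the mean difference from 24.5 to 16, and leaving out WT A raised it to 33. The KO lists are short, with 0.354% of genes nearest to a KO A peak and 0.865% to a KO G peak. At the share that receptor gene peaks had in WT A (0.337% of peaks), 0.280 would be found among the KO A peaks and 0.700 among those of KO G. The KO counts of 0 are therefore less than 1 peak below the numbers at the WT share. The count of 0 among 291 KO peaks allows a share of up to 1.03%, taking 3 peaks as the limit of a count of 0. The nearest KO peaks were 598 kb from a receptor gene start site in KO A, at Vdr, and 838 kb in KO G, at Ppard.

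**Figure D5:**
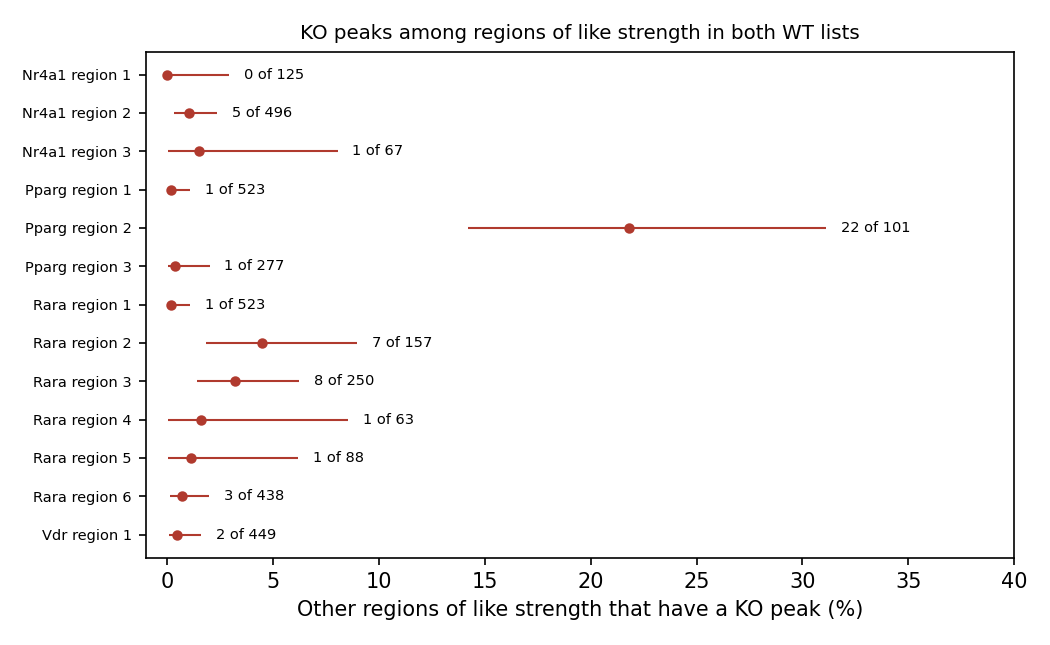
For each of the 13 receptor gene regions, the percentage of other regions of like strength (−log10 q within 25% of its own in both WT lists) that overlapped a KO peak, with 95% exact binomial intervals (bars, counting error only) and the numbers beside them. Pparg region 2 has the highest share (22 of 101), and none of the 13 regions themselves had a KO peak.

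None of the 13 shared receptor gene regions overlapped a KO peak (0 of 13, which allows a share of up to 24.7% by the two-sided 95% exact binomial interval), next to 5.87% of all shared regions. Their absence was then set beside other shared regions of like strength, meaning those whose −log10 q was within 25% of that of the region in both WT lists. Around Pparg region 2 there were 101 such regions, and 22 of them (21.8%, interval 14.2 to 31.1) overlapped a KO peak, 7 in KO A and 20 in KO G. Most regions of its strength thus had no KO peak either. For Rara region 2 the count was 7 of 157 (4.46%) and for Rara region 3 it was 8 of 250 (3.20%). For the other 10 regions it ran from 0% to 1.59%. KO peaks were concentrated at stronger regions: of the 96 regions at least as strong as Pparg region 2 in both WT lists, with no upper limit, 57 (59.4%) overlapped one. The absence of KO peaks from the receptor genes was therefore what most regions of their strength showed. This comparison was chosen after the data were seen, and no test was made.

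The WT values were also scaled to the KO libraries, both of which were deeper than WT G. With the enrichment over the genome-wide background seen in WT A, Pparg region 2 would have held 16.3 (KO A) and 15.8 (KO G) fragments. The smallest peaks called against the genome-wide background of those libraries had 10 and 8. Under the same arithmetic 8 of the 13 regions would have reached the lowest called number in KO A and 11 of 13 in KO G, and from the enrichment in WT G all 13 would have in both. Pparg region 3 is counted among the 8, at 10.2 fragments in KO A. Its WT A peak, however, had a local background 1.59 times the genome-wide level, and enrichment over that local background was not scaled. This is a scaling of WT values and no test. Regions were selected for being called in WT, which favours high counts, and fragments below the calling threshold in the KO libraries are not listed. Whether binding at these regions was lost in the KO libraries, in part or completely, was therefore not tested.

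Sequence at the summits was compared with all shared regions. The motif searched was AGGTCA in pairs as direct, inverted or everted repeats with spacers of 0 to 5 bp, on both strands, with at most 2 mismatches in 12 bases, within 50 bp of the summit. Direct repeats were found in 3 of the 13 regions, those printed above, and in 14.7% of all 3423 regions. None of the 13, and 2.69% of all, had one with at most 1 mismatch. Within 100 bp of the summit, 4 of the 13 had one, Nr4a1 region 2 being the addition, next to 25.4% of all. In the windows of 50 bp to either side, DR1, the spacing that PPARs favour, occurred only at Rara region 3. There DR4, the spacing that thyroid hormone receptors and LXRs favour, occurred only at Rara region 4. In the same windows, the DR3 at Pparg region 2 has the spacing that VDR favours. Everted repeats occurred in 3 of 13 (5.05% of all regions). They were at Pparg region 2 and Rara region 4, where they use the exact hexamer of the direct repeat, and at Pparg region 1. Inverted repeats occurred in 0 of 13 (5.11%), and an exact single AGGTCA in 3 of 13 (15.2%). With 13 regions the exact binomial interval of 3 in 13 runs from 5.04% to 53.8%, so these shares cannot be separated from the background. A match describes letters and does not show which partner was bound.

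Motifs of macrophage factors were counted in the same windows without mismatches. The PU.1 core GAGGAA was found in 5 of 13 regions (38.5%, interval 13.9 to 68.4), next to 19.0% of all. TTGCNNAA for C/EBP was found in 1 (11.0% of all), TGANTCA for AP-1 in 1 (7.51%) and TGTGGTT for RUNX in 0 (5.93%). The intervals for all 4 include the value over all regions. By position, 2 of the 13 regions were in a promoter (from 1 kb before a start site to 100 bp after it), at Pparg and Rara, next to 10.8% of all shared regions. There were 9 in introns (50.8%) and 2 between genes (31.5%), the latter both upstream of Nr4a1. With promoters of 3 kb on each side, 5 of 13 were in one (38.5%, interval 13.9 to 68.4), next to 30.4% of all. Among receptors without a peak, the RefSeq promoters of Rarb and Thrb held direct repeats by the same rule, as did 15.7% of the 32619 promoters in the table. No list had a peak there.

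The genes around RXR signalling were counted in the same way. None of Rxra, Rxrb and Rxrg had a region in both WT lists, although Rxra had 1 peak in each WT list. Further partners of RXR (Nr1h2 and Nr1h3 for the LXRs, Nr1h4 for FXR, Nr1i2, Nr1i3 and Nr4a2) had no peak in any list, 0 of 6. Of 29 further nuclear receptors outside these partner lists, Nr1d1 alone had a region in both WT lists, next to 8.9% of all genes. No gene of these lists had a KO peak. The listed partner genes with shared regions were thus Rara, Pparg, Nr4a1 and Vdr, 4 of the 16 in both partner lists, which may not be complete.

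The genes most like Rara in peak numbers over the 4 lists were B4galt5, with 6 peaks in WT A and 15 in WT G, Mcl1, with 6 and 13, and Syk, with 7 and 14, and none had a KO peak. The measure was the sum over lists of the absolute difference in log2 of peaks plus 1, which was 0.0931, 0.0995 and 0.193. Their strongest −log10 q values were 8.06 and 10.5 at B4galt5, 13.5 and 15.9 at Mcl1, and 21.1 and 24.0 at Syk, in WT A and WT G, next to 11.3 and 15.9 at Rara.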

How the data were processed

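RXRα peaks were taken from the lists deposited for 4 ChIP libraries (WT A, WT G, KO A, KO G). According to the processing notes of the submitters, Cutadapt 1.7.1, samtools 0.1.18 and MACS3 3.0.0a5 were used on mm10. Peaks were called by the authors in each library against the input at a q threshold of 0.05. The deposited fold enrichment is a ratio of summit pileup to local background, 1 being added to both. Each deposited −log10 p or q belongs to a summit. The deposited score derives from the q value and was not used.

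Peaks were assigned at their midpoints to the nearest TSS of a protein-coding gene (GENCODE M21, basic set). WT peaks overlapping by at least 1 bp were merged into regions. Fragments were derived as the whole number that, with a background level, gave the deposited fold and −log10 p (within 0.002), which held for every peak. In WT A the pileup was scaled by 0.884. The lists hold no read totals, so genotypes were compared by peak numbers with an exact permutation test, not by the read counts the study used. Intervals are 95% exact and cover counting error only. Computations used scipy 1.17.1, pandas 2.3.3, pysam 0.24.0 and numpy 2.4.6 under Python 3.11.15. Tests on simulated or constructed cases with known answers covered the fragment derivation, the overlaps, the nearest-TSS assignment and the repeat search.

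The member genes and comparison lists were chosen with earlier results of these data known. The rule for named regions took every region in both WT lists at a member gene, printed windows for the strongest region of each gene and for those with a direct repeat, and named the 3 genes most like the member with most regions. Alternatives covered assignment (summit, any gene type, 1 TSS per gene, RefSeq, 100 kb), q, overlap, list length, promoter width, motif rules and leaving out libraries. The promoters of 9 of 10 members were matched in the RefSeq table (GRCm38.p6).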

Additional observations from a re-analysis of the deposited data

How the results depend on the processing

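The 4 genes with a region in both WT lists were the same under summit assignment, assignment to genes of any type, 1 TSS per gene, RefSeq gene models, a limit of 100 kb, a −log10 q of at least 3, an overlap of 50% and a WT G list cut to as many peaks as WT A has. Of 39 alternative values of 9 results, 34 stayed within their limits and 5 moved. The limits were wide: the same sign for the WT minus KO difference, 1.5 times for other counts, the exact binomial interval for shares and 1 SD between peaks for the fold enrichment. With an overlap of 50% of both peaks, the share of matched receptor gene peaks fell to 37.5% in WT A and 18.2% in WT G. With the shortened WT G list, its share was 58.8%. Promoters of 3 kb on each side held 5 of the 13 regions, and with at most 1 mismatch 0 regions held a direct repeat. The mean WT minus KO difference ran from 16.0 to 33.0 peaks when 1 library was left out, and from 16.5 to 24.5 under the other alternatives. Of the 10 genes, 4 had a peak without WT G and 5 had one without WT A, an alternative added after the data were seen, as was RefSeq assignment of peak numbers. With the letters A and G as a replicate block, the pairs differed by 16 and 33 peaks, and the mean was again 24.5. The labels do not say that a letter marks a shared animal or day, and an exact paired permutation test cannot pass 0.05 with 2 pairs.

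Single genes moved more. When genes of any type competed, an snRNA gene inside Rara (Gm22061) took 3 WT A and 6 WT G peaks, and Rara kept 3 shared regions of 6. It had 5 with 1 TSS per gene, with RefSeq and at a −log10 q of at least 3, and 4 with WT G shortened. Nr4a1 had 2 at a −log10 q of at least 3 and with WT G shortened, where Ppard also had no peak. A WT G peak rested on as few as 5 fragments, fragments under the threshold are not listed, and read totals were not used here. The part of depth in the counts was not tested.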
